A study of Homo sapiens with 13 samples.

Results

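GDF15 and 9 genes of the integrated stress response, ATF4, DDIT3, ATF3, TRIB3, CHAC1, ASNS, DDIT4, SESN2 and VLDLR, were followed in small cell lung cancer (SCLC) cells under FHD-286, a dual inhibitor of the SMARCA2 and SMARCA4 ATPases that drive SWI/SNF chromatin remodelling. These 10 genes were found by symbol among the 56831 genes listed for each line, and all 10 passed the filter on low values in both lines. GDF15 was chosen by its large fall in treated H146, so its values in that line are given as a description, without a test, and the others were chosen as genes of the same response with earlier results of these data known. H82 is an established line of the NEUROD1-expressing subtype and H146 of the SCLC-A subtype. Groups were untreated H82 (3 libraries), H82 given 100 nM FHD-286 for 14 days (3 libraries), untreated H146 (3 libraries) and H146 given the same treatment (4 libraries), all grown in RPMI1640 with 10% serum. Inhibitor was replenished at intervals of 48 h in the treated cells, and the labels give no vehicle for the untreated ones. Each group is 1 established line, and nothing in the labels says that its libraries came from separate cultures, so the p values measure the spread between these libraries, which may be technical.

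In the integrated stress response, kinases that sense unfolded protein in the endoplasmic reticulum (ER), lack of amino acids, lack of heme or double-stranded RNA phosphorylate the initiation factor eIF2. General translation then slows while the transcription factor ATF4 is made in larger amounts, and ATF4 with DDIT3 (also called CHOP) and ATF3 induces genes for amino acid supply, for feedback and for cell death. GDF15 is a secreted cytokine of the TGF-beta superfamily that is induced in stressed cells and acts on the brainstem receptor GFRAL with its co-receptor RET to reduce appetite. ATF4 is regulated largely through translation, so its mRNA is only a partial readout of the response.

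ATF4 binds composite elements of the form TGATGNAA, and the windows of the members that hold this form are shown because these genes share a regulator. RefSeq promoter windows of build GRCh38.p14, reaching from 250 bases before to 50 bases after each start site, were searched on both strands. A match was present in 3.62% of 35116 windows and in 3 of the 16 windows of the 10 members, those of ATF3, ASNS and CHAC1. Each line below gives 30 bases, 5′ to 3′ on the strand of the match, with the match in capitals.
ATF3 (chr1:212565205-212565234, plus strand): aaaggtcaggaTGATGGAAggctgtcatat
ASNS (chr7:97872458-97872487, minus strand): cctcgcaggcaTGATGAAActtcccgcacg
CHAC1 (chr15:40953251-40953280, minus strand): cctggcaggagTGATGCAAcggcaggggag
GDF15 (chr19:18386117-18386146, plus strand): aagtccggggacTATAAAggccggtccggc
The match began 191 bases before the start site in ATF3 and 68 bases before it in ASNS. In CHAC1 it lay on the strand opposite to the gene. The letters TGATGNAA are not in the GDF15 window, whose capitals mark instead the TATA box form TATAAA, starting 29 bases before the start site. TATAAA, searched on both strands and not overlapping the other form, was found in 11.5% of all windows and, among the members, in windows of GDF15, ATF3 and ATF4. A match of letters is a description and no evidence of binding.

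The deposited values are TPM (transcripts per 1000000), in which the reads of a gene are divided by its length and each library is scaled to the same sum. Read totals are unknown from them, so no counting interval is given. The number of genes at 1 TPM or more was 21227 to 21772 in untreated H82 libraries and 15554 to 16633 in treated ones, and in H146 the ranges were 17476 to 17965 and 18778 to 19309. Mitochondrial genes took 22.1% to 24.1% of TPM in untreated and 12.3% to 14.9% in treated H82, and 7.56% to 8.86% in untreated and 3.82% to 11.4% in treated H146. Over all genes tested, the median change on the log2 scale was -0.56 for H82 and 0.25 for H146, and changes of single genes are best read against these shifts. Scaling the libraries by the median of ratios raised the share of calls that were higher from 22.3% to 42.5% in H82 and lowered it from 67.7% to 45.9% in H146. The part of these shifts in the results was not tested beyond that scaling, whose counts stand beside most of the gene lists. NEUROD1 was at 224 to 234 TPM in untreated H82 and at 0.26 to 0.52 TPM in untreated H146, matching the labelled subtype of H82.

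Several libraries stood apart. H82 treated replicate 2 held 296 TPM of INSM1, 35.7 of FOXA2, 32.8 of EPCAM and 56.4 of GRP, whereas the other treated H82 libraries stayed at or below 34.0, 2.62, 3.08 and 5.47 TPM of these genes in the same order. All these are genes that untreated H146 expressed at 67.9 TPM or more, but CDH1, at 45.5 to 60.8 TPM in untreated H146, was at 0.40 TPM in this library. The 5 genes of that list summed to 14.2 to 18.0 TPM in untreated H82 and 37.9 to 421 TPM in treated H82. ALB, the liver albumin gene, was at 310 to 516 TPM in all treated H82 libraries and at 0 to 0.061 TPM without treatment, while COL1A1 reached 16.7 TPM in 1 treated H82 library and PTPRC, CD3E and PECAM1 were at 0.501 TPM or less in every H82 library. In H146 the same 5 markers of stromal, blood and liver cells summed to 9.22 to 12.0 TPM without and 9.28 to 15.1 TPM with treatment, and none of the 2 that were tested passed the threshold. The part of these differences in the results was not tested.

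GDF15 was abundant in untreated H146, at 1152, 1187 and 1544 TPM, and was at 9.11, 30.7, 7.81 and 6.09 TPM in the 4 treated libraries. All treated libraries lay far below all untreated ones. The mean was 1294 ± 217 TPM (SD, n = 3) without and 13.4 ± 11.6 TPM (SD, n = 4) with FHD-286, a 96.4-fold lower mean. On the log2(TPM + 1) scale the fitted change was -6.75 (SE 0.46), and these values are those on which the gene was chosen. Even the highest treated library, replicate 2, held 2.37% of the untreated mean.

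H82 hardly expressed GDF15. Untreated libraries were at 0.74, 1.86 and 0.79 TPM and treated libraries at 8.36, 11.2 and 0.12 TPM. Treated replicates 1 and 2 lay above all untreated libraries and replicate 3 below them, so that the groups overlapped. The log2 fold change of 1.29 (SE 0.86) did not pass the threshold (limma, adjusted p = 0.24), and it was 2.37 (limma, adjusted p = 0.0024) without treated replicate 3. GDF15 no longer met the filter of 1 TPM in 3 libraries when treated replicate 1, treated replicate 2 or untreated replicate 2 was left out. Whether it was tested at all in H82 thus depends on these libraries. GDF15 lies on chromosome 19 (hg38, plus strand, 18374731 to 18389176, ENSG00000130513.7) and hosts the microRNA gene MIR3189, which was listed at no more than 9.20 TPM in any library.

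**Figure D1:**
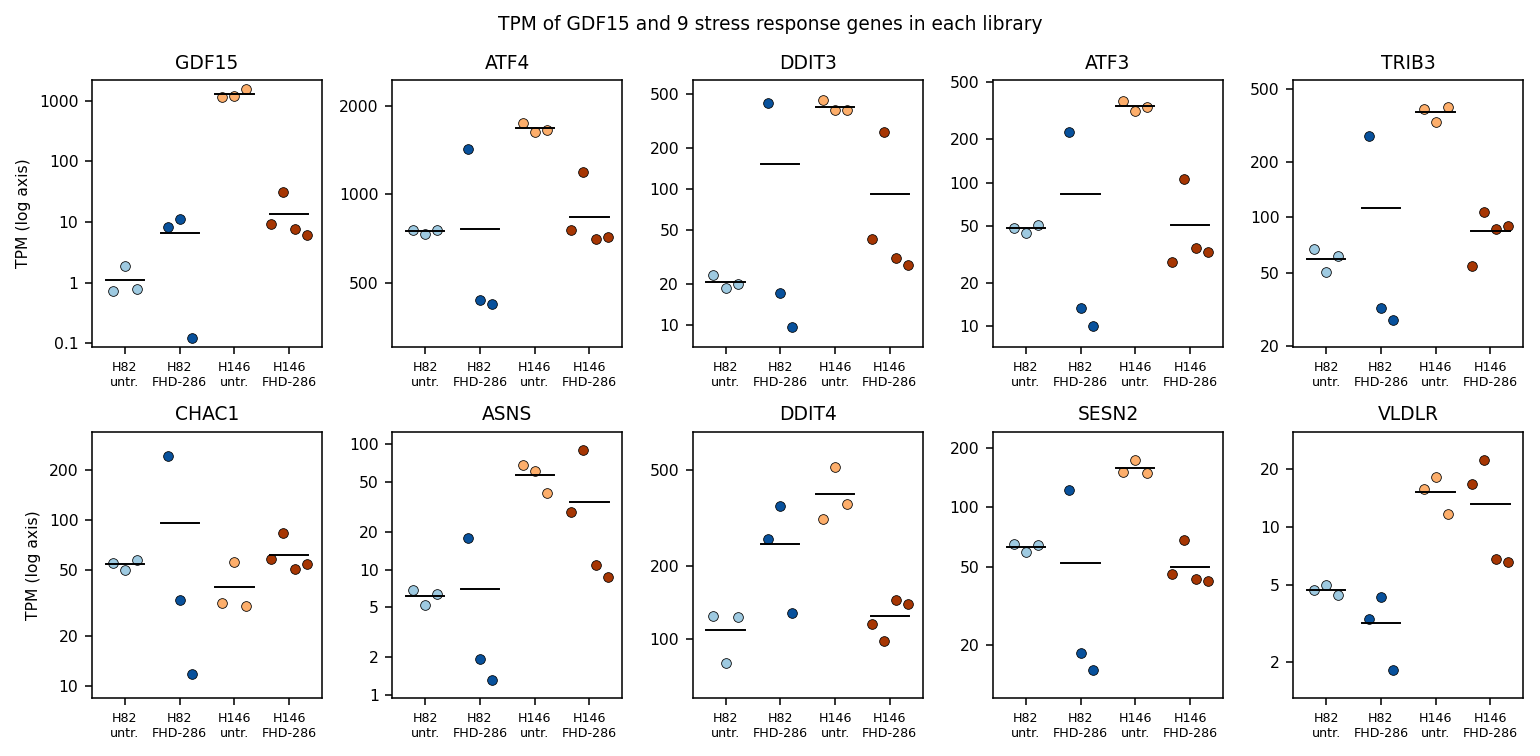
Level of each gene in TPM (log axes that differ between panels) in every library of untreated and FHD-286-treated H82 and H146, with points for libraries and bars for group means. GDF15 fell from 1152 or more to 30.7 TPM or less in H146, and for DDIT3, ATF3, TRIB3, CHAC1 and ASNS 1 treated H82 library stands far above the other two.

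The transcription factors of the response fell with FHD-286 in H146. ATF4 was at 1748, 1634 and 1660 TPM in untreated H146 and at 754, 1188, 704 and 716 TPM in treated H146, without overlap and with a log2 fold change of -1.03 (SE 0.19, limma, adjusted p = 0.0032). DDIT3, which encodes the death-promoting factor CHOP, was at 453, 380 and 383 TPM without and at 42.9, 264, 30.8 and 27.6 TPM with treatment. Its treated replicate 2 stayed closer to the untreated level than the other 3 did, but below it, and the log2 fold change was -2.83 (SE 0.69, limma, adjusted p = 0.010). ATF3, a factor induced by ATF4 and by many other stresses, was at 369, 316 and 335 TPM without and at 27.8, 106, 35.1 and 32.7 TPM with treatment, again without overlap and with the highest treated value in replicate 2. Its log2 fold change was -2.95 (SE 0.41, limma, adjusted p = 0.00074). DDIT3 overlaps MIR616 (up to 65.3 TPM in H82 and 199 TPM in H146) and another annotated protein-coding gene on its own strand. On the other strand it overlaps the genes MARS and MBD6. Whether the counting used strand is not given in the sources used here, and strand would not separate genes on the same strand. The DDIT3 value is uncertain to that extent. ASNS also overlaps a long noncoding RNA on its own strand and a pseudogene on the other, VLDLR overlaps long noncoding RNAs on the other strand, and the same limit holds for them.

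Of the targets that restrain the response or the growth pathway mTORC1, 3 fell in H146. TRIB3, a pseudokinase that binds ATF4 and dampens its activity, was at 389, 327 and 396 TPM in untreated and 54.6, 107, 86.4 and 89.6 TPM in treated H146 (log2 fold change -2.16, SE 0.21, limma, adjusted p = 0.00016). DDIT4, also called REDD1, an inhibitor of mTORC1, was at 313, 514 and 361 TPM without and 116, 98.0, 145 and 140 TPM with treatment (log2 fold change -1.65, SE 0.20, limma, adjusted p = 0.00044). SESN2, which inhibits mTORC1 when leucine is scarce, was at 152, 173 and 149 TPM without and 45.6, 68.4, 43.1 and 42.0 TPM with treatment (log2 fold change -1.67, SE 0.18, limma, adjusted p = 0.00023). In all 3 genes every treated library lay below every untreated one.

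The remaining members did not pass the threshold in H146. CHAC1, an enzyme that degrades glutathione, was at 31.7, 55.7 and 30.0 TPM without and 58.2, 83.1, 50.2 and 53.9 TPM with FHD-286, with overlap because untreated replicate 2 reached the treated range (log2 fold change 0.66, SE 0.25, limma, adjusted p = 0.055). Without that library its value was 0.94 (limma, adjusted p = 0.014), so that it was the only one of the 9 other members past the threshold in the upward direction. Without untreated replicate 1 or 3 the CHAC1 value was 0.54 or 0.51 (limma, adjusted p = 0.18 and 0.20). With median of ratios scaling it was 0.35 (limma, adjusted p = 0.29). ASNS, the asparagine synthetase, was at 68.6, 61.4 and 40.7 TPM without and 28.9, 89.6, 10.8 and 8.65 TPM with treatment, with replicate 2 above all untreated libraries and the other 3 below them (log2 fold change -1.26, SE 0.69, limma, adjusted p = 0.16). VLDLR, a lipoprotein receptor that is also induced by ATF4 signalling, was at 15.8, 18.1 and 11.7 TPM without and 16.6, 22.3, 6.83 and 6.62 TPM with treatment. Its treated libraries fell on both sides of the untreated ones (log2 fold change -0.35, SE 0.41, limma, adjusted p = 0.50).

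In H146, 6 of the 9 members other than GDF15 were thus lower and 0 were higher at an adjusted p under 0.05, with 7 at an unadjusted p under 0.05. Among all 19585 genes tested in this line, 15.5% were lower and 32.5% were higher. Since the members were gathered around a gene picked in this contrast, nothing is read from the count. Without treated replicate 2, ASNS joined the lower genes at -1.91 on the log2 scale (limma, adjusted p = 0.0038), which made 7 of 9, where 19.6% of all genes were lower and 39.3% higher.

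The treated H82 libraries differed strongly among themselves. ATF4 was at 758, 733 and 759 TPM in untreated H82 and at 1433, 436 and 423 TPM in the treated libraries. DDIT3 was at 23.3, 18.7 and 19.9 TPM without and at 432, 17.1 and 9.56 TPM with treatment. ATF3 was at 48.6, 44.7 and 50.5 TPM without and at 226, 13.4 and 10.0 TPM with treatment. In each of these factors treated replicate 1 was the highest of the 6 libraries and treated replicates 2 and 3 were the lowest.

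The same held for 4 of the targets. TRIB3 was at 67.0, 50.5 and 61.4 TPM without and 276, 32.0 and 27.6 TPM with treatment, and CHAC1 at 54.9, 50.0 and 56.9 TPM without and 243, 33.0 and 11.7 TPM with treatment. ASNS was at 6.84, 5.18 and 6.34 TPM without and 17.8, 1.93 and 1.32 TPM with treatment, and SESN2 at 65.2, 59.4 and 64.4 TPM without and 123, 18.2 and 15.0 TPM with treatment. In treated replicate 1 the ratio to the untreated mean ran from 1.91 for ATF4 to 20.9 for DDIT3 among these 7 genes. VLDLR differed from them, at 4.74, 5.00 and 4.45 TPM without and 3.35, 4.35 and 1.82 TPM with treatment, with all treated libraries below all untreated ones (log2 fold change -0.51, SE 0.27, limma, adjusted p = 0.15).

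DDIT4 was the only member past the threshold in H82. It was at 125, 79.8 and 124 TPM without and at 260, 354 and 129 TPM with FHD-286, with all treated libraries higher, though replicate 3 by little. The log2 fold change was 1.08 (SE 0.38, limma, adjusted p = 0.044), and the call was lost, with adjusted p between 0.079 and 0.16, without any 1 of the libraries other than treated replicate 3. DDIT4 responds to low oxygen and glucocorticoids as well as to ATF4.

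At an adjusted p under 0.05, 0 of the 10 members were lower and 1 was higher in treated H82, where 45.5% of 19770 tested genes were lower and 13.1% higher (limma, 1 member at an unadjusted p under 0.05). Without treated replicate 1, 6 of the 9 members still tested were lower and 0 were higher, where 52.2% of all genes were lower and 18.4% higher. These were ATF4 (log2 fold change -0.80), ATF3 (-1.95), TRIB3 (-0.97), CHAC1 (-1.40), ASNS (-1.44) and SESN2 (-1.87), with adjusted p from limma between 0.00013 and 0.018. DDIT3 was at -0.64 (limma, adjusted p = 0.054) and DDIT4 at 0.99 (limma, adjusted p = 0.084) in that fit. The share of members called lower there is not far from the share of all genes. Read against the median of all genes in the full fit, the 10 members ran from -0.37 for SESN2 to 1.84 for GDF15 on the log2 scale, with ATF3 at -0.006 and ATF4 at 0.34.

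**Figure D2:**
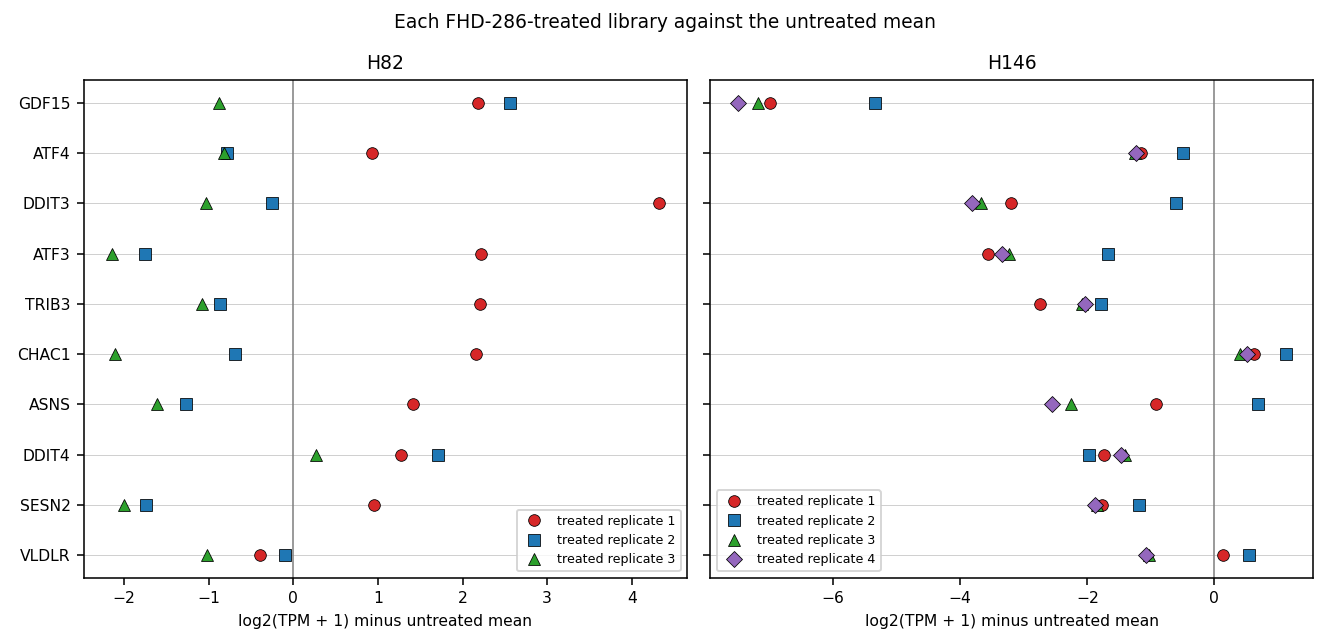
Difference of each FHD-286-treated library from the mean of the untreated libraries of its line, in log2(TPM + 1), for the 10 genes. In H82 treated replicate 1 lies right of 0 for 9 genes, and replicates 2 and 3 lie left of 0 for 8. In H146 replicate 2 is the rightmost point for all genes but DDIT4.

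The way the H82 libraries split was counted by a rule set after these values had been seen. Treated replicate 1 lay above every untreated library for 9 of 10 members and for 24.4% of all tested genes. Treated replicates 2 and 3 both lay below every untreated library for 8 members and for 57.2% of genes. Both held for 7 members, ATF4, DDIT3, ATF3, TRIB3, CHAC1, ASNS and SESN2, and for 2.73% of genes. The same 7 genes were at least 1.5 times higher in replicate 1 than in either other treated library, with ratios to the next library between 3.29 for ATF4 and 25.2 for DDIT3, against 19.0% of all genes past 1.5. GDF15 and DDIT4 did not share this split, since both were highest in replicate 2.

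H146 had a similar but smaller split. Treated replicate 2 was at least 1.5 times every other treated library for 5 members, against 7.14% of all genes. These were GDF15 (3.37 times the next library), ATF4 (1.58), DDIT3 (6.16), ATF3 (3.01) and ASNS (3.10). DDIT4 went the other way, with its lowest treated value in that library.

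Whether the response depended on the line was tested by an interaction term for the 9 members other than GDF15. The fold change was lower in H146 than in H82 for DDIT4, by -2.73 on the log2 scale (SE 0.45, limma, adjusted p = 0.00025), as DDIT4 rose in H82 and fell in H146. It was also lower for TRIB3 (-2.25, SE 0.87, limma, adjusted p = 0.041) and for DDIT3 (-3.84, SE 1.55, limma, adjusted p = 0.048). Both of these calls lay near the threshold. TRIB3 lost its call in 9 of 13 fits that each left out 1 library (limma, adjusted p from 0.054 to 0.083). DDIT3 lost its call in 10 of 13 (limma, adjusted p from 0.066 to 0.085). Without H82 treated replicate 1 the difference was smaller for both. It was -2.19 for DDIT3 (limma, adjusted p = 0.066) and -1.19 for TRIB3, which kept its call (limma, adjusted p = 0.0056). Over all genes tested in either line, 13.7% were lower and 46.5% higher in H146 by this test. Of the other members, ATF3 (-2.39, SE 1.20, limma, adjusted p = 0.10), ATF4 (-0.81, limma, adjusted p = 0.19), CHAC1 (0.88, limma, adjusted p = 0.48), ASNS (-0.77, limma, adjusted p = 0.57), SESN2 (-0.74, limma, adjusted p = 0.42) and VLDLR (0.15, limma, adjusted p = 0.82) did not pass. Without H82 treated replicate 1, CHAC1 passed with 2.07 (limma, adjusted p = 0.0035).

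In the order of group means, untreated H146 was highest for GDF15, as its choice made likely, and for 8 of the 9 other members, all except CHAC1. This held for 19.9% of all genes tested in either line. For ATF4, ATF3, TRIB3 and SESN2, 4 of these 9, every untreated H146 library lay above all other libraries, as it did for 10.1% of all genes. The DDIT3 libraries of untreated H146 overlapped those of treated H82, where replicate 1 reached 432 TPM. Treated H146, treated H82 and untreated H82 followed in varying order and mostly overlapped their neighbours. VLDLR was the gene for which the 2 lines separated regardless of treatment, with 6.62 TPM or more in every H146 library and 5.00 TPM or less in every H82 library.

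Upstream of ATF4, the 4 kinases that phosphorylate eIF2 were all expressed. EIF2AK4 (GCN2, the sensor of uncharged tRNA) was at 4.29 to 4.99 TPM in untreated and 14.7 to 17.2 TPM in treated H146, a log2 fold change of 1.56 (SE 0.14, limma, adjusted p = 8.4e-05). EIF2AK2 (PKR, the sensor of double-stranded RNA) was higher in H146 by 0.60 (limma, adjusted p = 0.025), but by 0.30 and short of the threshold with median of ratios scaling (limma, adjusted p = 0.13), and it fell in H82 by 1.60 on the log2 scale (limma, adjusted p = 0.0027). EIF2AK3 (PERK, the ER sensor) stood at -0.65 (log2) in H82 and -0.38 in H146 (limma, adjusted p = 0.049 and 0.082). Median of ratios scaling swapped these calls, to -0.22 in H82 and -0.68 in H146 (limma, adjusted p = 0.50 and 0.0077). EIF2AK1 (HRI, the heme sensor) was at 0.26 in H82 and -0.02 in H146 (limma, adjusted p = 0.11 and 0.90), and EIF2AK4 was at -0.02 in H82 (limma, adjusted p = 0.95). With that scaling EIF2AK1 passed in opposite directions, at 0.75 in H82 and -0.34 in H146 (limma, adjusted p = 0.0014 and 0.035). Protein levels and phosphorylation were not measured in these libraries.

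Among 10 genes of eIF2, its exchange factor eIF2B and the phosphatase subunits that reverse its phosphorylation, 1 was lower and 1 higher in H82, and 2 were lower and 1 higher in H146. With median of ratios scaling the counts were 1 lower and 6 higher in H82 and 5 lower and 0 higher in H146, so the direction of this list depends on the scaling. For this list and each gene set below, 45.5% of all tested genes were lower and 13.1% higher in H82 in the main fit. In H146 these shares were 15.5% and 32.5%. PPP1R15A (GADD34, the stress-induced phosphatase subunit and itself an ATF4 target) was at 236 to 256 TPM in untreated and 46.6 to 121 TPM in treated H146 (log2 fold change -1.48, SE 0.29, limma, adjusted p = 0.0041). In H82 it was at 85.3 TPM in treated replicate 1 and at 20.9 and 19.8 TPM in the others, against 54.7 to 67.0 TPM without treatment (log2 fold change -0.89, limma, adjusted p = 0.19). PPP1R15B, the constitutive subunit, fell in H82 by 1.35 on the log2 scale (limma, adjusted p = 0.00042) with all treated libraries between 48.3 and 62.5 TPM, and was at -0.43 in H146 (limma, adjusted p = 0.15), where median of ratios scaling took it past the threshold at -0.75 (limma, adjusted p = 0.032). The largest rises were EIF2B3 in H82 (1.09, limma, adjusted p = 0.00098) and EIF2B1 in H146 (0.59, limma, adjusted p = 0.025), of which EIF2B1 was at 0.27 and short of the threshold after that scaling (limma, adjusted p = 0.18).

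A short list held 4 bZIP factors, ATF5, CEBPB, CEBPG and JDP2, and the stress-induced cofactor NUPR1, which is not a bZIP factor. In H146, 4 of 5 fell, all except ATF5, led by JDP2 at -1.47 (limma, adjusted p = 0.00046), and 0 rose. In H82, 2 of the 3 tested rose and 0 fell, led by CEBPB at 1.66 (limma, adjusted p = 0.026), with 203 TPM in treated replicate 1 and 48.2 to 57.6 TPM in the other treated libraries against 23.4 to 28.6 TPM without treatment. CEBPB, a partner of both ATF4 and DDIT3, was at -0.77 in H146 (limma, adjusted p = 0.018).

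Genes of amino acid transport and synthesis, a main output of ATF4, were mixed. In H146, 8 of 18 tested fell and 5 rose, with the largest fall in SLC3A2 (1310 to 1766 TPM without and 223 to 483 TPM with treatment, log2 fold change -2.33, limma, adjusted p = 0.00027), the heavy chain of the cystine and leucine transporters. The largest rise was ALDH18A1, the first enzyme of proline synthesis, at 1.88 (limma, adjusted p = 1.7e-05). In H82, 6 of 19 fell, led by the glycine transporter SLC6A9 at -1.52 (limma, adjusted p = 0.00069), and 1 rose, SLC3A2 at 0.71 (limma, adjusted p = 0.0092). With median of ratios scaling 2 genes were lower and 3 higher in H82 and 11 lower and 1 higher in H146. SLC3A2 passed the threshold in both lines with opposite signs. In the main fit 45.5% of all tested genes were lower and 13.1% higher in H82. In H146 these shares were 15.5% and 32.5%.

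Of 13 genes that charge or export tRNA, many of them ATF4 targets, 6 fell and 1 rose in H146, with WARS at -1.74 (limma, adjusted p = 4.5e-05) and LARS at 0.71 (limma, adjusted p = 0.0016) as the extremes. In H82, 2 were lower, MARS at -0.54 (limma, adjusted p = 0.00997) and TARS at -0.53 (limma, adjusted p = 0.010), and 0 were higher. With median of ratios scaling MARS was at -0.05 and TARS at -0.04 (limma, adjusted p = 0.78 for both), and the counts were 0 lower and 3 higher in H82 and 10 lower and 1 higher in H146. Without H82 treated replicate 1, 10 of these 13 were lower and 1 was higher, where 52.2% of all genes were lower and 18.4% higher. In the main fit the shares of all tested genes were 45.5% lower and 13.1% higher in H82. In H146 they were 15.5% and 32.5%.

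Among 15 other outputs of the response, 8 of 13 tested fell in H146 and 1 rose. FGF21, like GDF15 a secreted hormone of cell stress, was at 28.4, 30.2 and 36.5 TPM in untreated H146 and at 0.25, 0.73, 0.24 and 0.53 TPM in treated H146. This was the largest fall of the list, at -4.51 (SE 0.19, limma, adjusted p = 2.9e-06), and the highest treated value was again in replicate 2. TRIB2 rose by 1.08 (limma, adjusted p = 0.0045), but at low levels, 0.48 to 0.65 TPM without and 1.35 to 2.88 TPM with treatment. In H82, 6 of 14 fell, led by DDIT4L, a paralog of DDIT4, at -1.52 (limma, adjusted p = 0.00055), and 2 rose, led by STC2 at 1.76 (limma, adjusted p = 0.022). The counts with median of ratios scaling were 4 lower and 3 higher in H82 and 9 lower and 1 higher in H146. In the main fit 45.5% of all tested genes were lower and 13.1% higher in H82, close to the shares of this list. In H146 the shares of all genes were 15.5% and 32.5%.

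**Figure D3:**
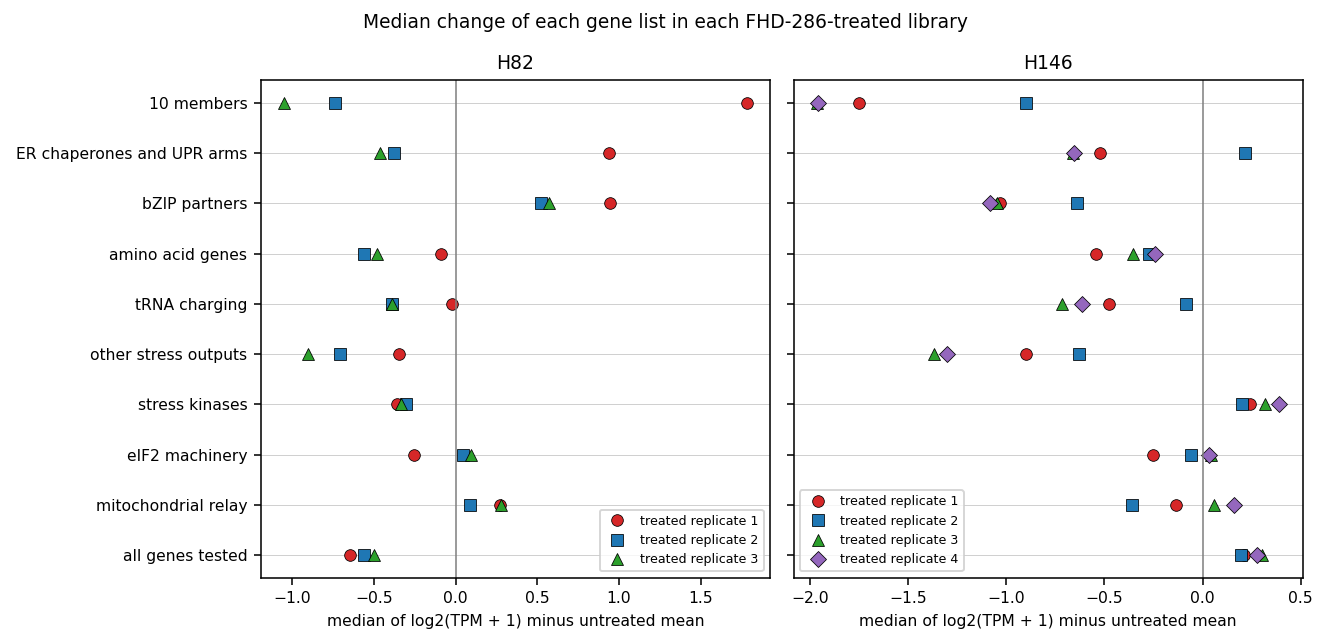
Median over each gene list of the difference between a FHD-286-treated library and the untreated mean of its line, in log2(TPM + 1), with 1 symbol per treated library. The 10 members and the ER chaperones are the lists in which H82 treated replicate 1 (medians 1.78 and 0.94) lies farthest to the right of replicates 2 and 3 (-0.74 and -1.05 for the members, -0.38 and -0.46 for the chaperones).

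ER chaperones and the other arms of the unfolded protein response followed the same libraries as the members. HSPA5 (BiP, the main ER chaperone) was at 856 to 877 TPM in untreated H82 and at 4001, 592 and 511 TPM in the treated libraries. In H146 it was at 786 to 852 TPM without and at 452, 1620, 361 and 340 TPM with treatment. HERPUD1, a factor of ER-associated degradation chosen like HSPA5 after its values had been seen, was at 314, 24.9 and 18.3 TPM in treated H82 against 66.1 to 70.0 TPM without treatment. H82 treated replicate 1 was at least 1.5 times the other treated libraries for 18 of the 20 genes, against 19.0% of all tested genes. H146 treated replicate 2 was so for 13 of 20, against 7.14%. Both libraries were picked after values had been seen.

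Over this list, 4 genes were lower and 1 higher in H82, with SDF2L1 at 2.33 (limma, adjusted p = 0.0016) and ERN1, which encodes the sensor IRE1, at -1.38 (limma, adjusted p = 0.0020) as the extremes. In H146, 4 fell and 0 rose, led by XBP1, the transcription factor activated by IRE1, at -2.01 (limma, adjusted p = 0.00031). With median of ratios scaling, 1 was lower and 4 higher in H82, the opposite balance, and 10 were lower and 0 higher in H146. Without the library that stood apart, 14 of 20 were lower and 4 higher in H82 and 14 of 20 were lower and 0 higher in H146. Of all genes in those fits, 52.2% were lower and 18.4% higher in H82, and 19.6% and 39.3% in H146. In the main fit the shares of all genes were 45.5% and 13.1% in H82 and 15.5% and 32.5% in H146. The summed level of the list was 4007 to 4146 TPM in untreated and 3719 to 15910 TPM in treated H82, and 6259 to 6721 TPM in untreated and 3061 to 8782 TPM in treated H146. What set these libraries apart was not tested.

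Genes that relay mitochondrial stress to eIF2, and the mitochondrial chaperones and proteases, were mostly short of the threshold. In H82, 1 of 7 rose, the protease subunit CLPP (0.83, limma, adjusted p = 0.011), and in H146 2 fell, led by the chaperonin HSPE1 (-1.47, limma, adjusted p = 0.00079). With median of ratios scaling 3 were higher and 0 lower in H82, and 3 were lower and 0 higher in H146. For OMA1, which cleaves the relay protein, the log2 fold change was -0.02 in H82 and 0.01 in H146 (limma, adjusted p = 0.94 and 0.96). The gene of the relay protein DELE1, listed as KIAA0141, was at -0.08 in H82 and 0.26 in H146 (limma, adjusted p = 0.78 and 0.095).

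Proteases that mature GDF15 and its receptor genes were followed by name. FURIN was at 13.7 to 18.3 TPM in untreated and 22.5 to 39.2 TPM in treated H82, a rise of 0.96 (limma, adjusted p = 0.013), and was at 0.26 in H146 (limma, adjusted p = 0.35). PCSK7 stood at -1.30 (log2) in H82, where it fell, and at 0.32 in H146, where it did not pass (limma, adjusted p = 0.0019 and 0.092). PCSK5 passed in neither line (-0.25 for H82 and -0.28 for H146, limma, adjusted p = 0.31 and 0.43), and PCSK6 was at 0.842 TPM or less in every library.

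GFRAL, the GDF15 receptor, was listed at 0 in every library but 1 untreated H146 library, which held 0.046 TPM. Its co-receptor RET, which also serves other ligands, was at 10.1, 9.01 and 9.11 TPM in untreated H146 and at 0.21, 0.35, 0.25 and 0.32 TPM in treated H146 (log2 fold change -3.02, SE 0.16, limma, adjusted p = 7.3e-06). RET stayed at 0.12 TPM or less in H82. Among 4 other known regulators of GDF15, 1 fell in H82 and 0 rose, and in H146 1 fell, KLF4 at -1.52 (limma, adjusted p = 0.0034), and 1 was higher, EGR1 at 1.57 (limma, adjusted p = 0.044), which became 1.31 (limma, adjusted p = 0.073) with median of ratios scaling. That scaling gave 1 lower and 1 higher in H82 and 3 lower and 0 higher in H146.

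Relatives of VLDLR were compared because VLDLR itself did not pass the threshold in either line. LRP8, the nearest paralog, fell in H82 from 40.4 to 44.5 TPM to 10.5 to 16.1 TPM (log2 fold change -1.66, limma, adjusted p = 0.00045) and was at 0.43 in H146 (limma, adjusted p = 0.068). RELN, the ligand that VLDLR shares with LRP8, fell in H146 by 0.89 on the log2 scale (limma, adjusted p = 0.0063).

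Neuroendocrine markers are given as the identity of the cells. In H82, 3 of 6 fell, led by CHGA at -2.36 (limma, adjusted p = 0.0057), and 2 rose, led by INSM1 at 2.19 (limma, adjusted p = 0.050), of which replicate 2 held most. In H146, 2 of 5 fell, led by INSM1 at -0.50 (limma, adjusted p = 0.022), and 0 rose. The list of genes typical of untreated H146 had 2 of 4 higher and 0 lower in H82, led by FOXA2 at 2.70 (limma, adjusted p = 0.048), and 4 of 5 lower in H146, led by GRP at -5.51 (limma, adjusted p = 1.8e-06). ALB was the only tested gene of the stromal, blood and liver markers in H82 and was higher (8.64, limma, adjusted p = 2.2e-05). In bulk RNA, fewer cells of a kind and less RNA per cell cannot be told apart.

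Of 24 protein-coding genes annotated within 250 kb of GDF15, 19 were matched by symbol and 16 passed the filter in H146. Their log2 fold changes there ran from -1.59 to 1.16, with RAB3A and PGPEP1 among the lower genes and 3 genes higher (MAST3, LSM4 and ELL). The GDF15 start site, that of its promoter window (18386158), lies inside the gene range given above. Start sites of MAST3 and KLHL26 were at -288.4 and 250.9 kb, so the limit of 250 kb does not apply to start sites. PGPEP1, with its start site 45.6 kb upstream of that of GDF15, was at 27.3 ± 2.83 TPM (SD, n = 3) without and 13.1 ± 2.03 TPM (SD, n = 4) with treatment (log2 fold change -1.01, limma, adjusted p = 0.0013). LRRC25, with its start site 11.5 kb downstream, was at 1.47 ± 0.34 TPM (SD, n = 3) without and 0.98 ± 0.25 TPM (SD, n = 4) with treatment (log2 fold change -0.32, limma, adjusted p = 0.19). The rise of LSM4 was 0.52 (limma, adjusted p = 0.035) and did not pass after scaling by the median of ratios (0.20, limma, adjusted p = 0.36).

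In H82, 15 of these neighbours were tested, 5 were higher (MPV17L2, RAB3A, JUND, LSM4 and SSBP4) and 1 was lower (MAST3), against 10 higher and 0 lower with median of ratios scaling, with log2 fold changes from -0.76 to 1.80. RAB3A, which encodes a GTPase of secretory vesicles, rose in H82 by 0.77 (limma, adjusted p = 0.0052) and fell in H146 by 1.59 on the log2 scale (limma, adjusted p = 0.0026). MAST3 was at -0.76 in H82 and 1.12 in H146 (limma, adjusted p = 0.0069 and 0.00061). With that scaling its H82 value was -0.30 and missed the threshold (limma, adjusted p = 0.16).

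**Figure D4:**
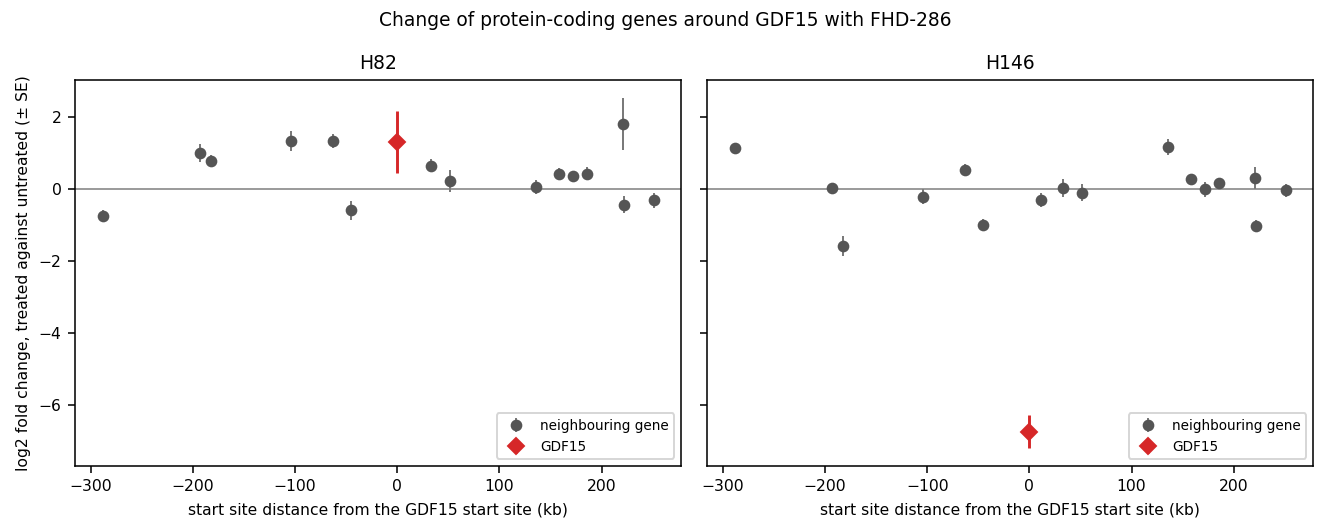
Log2 fold change with FHD-286 (± SE from limma) of GDF15 (diamond) and the tested protein-coding genes within 250 kb (circles), against the distance of their start sites in kb, in H82 and H146. In H146 GDF15, chosen for this value, is at -6.75, and its neighbours lie between -1.59 and 1.16. The start sites of MAST3 and KLHL26 lie beyond 250 kb, at -288.4 and 250.9 kb.

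By pattern over all 13 libraries, the 5 genes most like GDF15 were LMO4 (Pearson r = 0.986), STARD10 (0.982), TMOD1 (0.979), ADAMTSL1 (0.977) and DAPL1 (0.976), among 21009 genes with a mean of 1 TPM or more. The values were correlated as log2(TPM + 1) and share the same 4 groups, so that r mostly records a high level in untreated H146, and no test was made. TMOD1, for example, was at 40.1 to 58.7 TPM in untreated H146, at 1.75 to 2.21 TPM in treated H146 and at 1.72 TPM or less in H82. The members ranked far behind, from TRIB3 (r = 0.838, rank 894) and DDIT3 (r = 0.824, rank 1002) to CHAC1 (r = -0.049, rank 9929). Many genes outside the list thus had a pattern more like that of GDF15 than any other member had.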

How the data were processed

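RNA-seq of 13 libraries was analysed. The authors mapped reads to hg38 with STAR after Trim Galore 0.4.4, counted them per gene with GENCODE release 28, compared groups with DESeq2 and deposited TPM values, the unit used here. How gene length was taken is not given in the sources used here.

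Each line was fitted in R 4.3.3 with limma 3.58.1 (lmFit, eBayes with trend) on log2(TPM + 1), keeping genes that reached 1 TPM in 3 or more libraries. Tests were two-sided, p values were adjusted by Benjamini-Hochberg across the whole table, and adjusted p under 0.05 counted as called. The interaction was fitted over all 13 libraries. The fit was checked on simulated data that gave every library the spread of the untreated ones. That check does not cover the wider spread of the members in treated H82. The exact permutation test planned for members below the filter was not needed. Fold changes on log2(TPM + 1) understate changes of low genes.

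Members and gene lists were chosen with earlier results of these data known. Genes named are the members, the extreme rise and fall of each list past the threshold, the kinases, the phosphatase subunits, GDF15 processing and receptor genes, the 5 genes most correlated with GDF15, and its tested neighbours within 250 kb. Other genes named, such as HSPA5, OMA1, DELE1, LRP8, TARS and the markers of libraries that stood apart, were chosen after their values were seen. Results for some genes are not reported here. Positions come from GENCODE release 44 (hg38). Same-numbered replicates were not treated as pairs in the main fits. Alternatives were a pseudocount of 0.1, no filter, median of ratios scaling, a replicate block and each library left out. List counts without 1 library or with median of ratios scaling were added after seeing the data. Python 3.11.15 with pandas 2.3.3 and matplotlib 3.10.9 prepared tables and plots.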

Additional observations from a re-analysis of the deposited data

Results flagged for a closer look

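In treated H146, the highest of 4 libraries stood apart from the others by Dixon's 95% criterion (the gap to the next library as a share of the range) for GDF15 at 30.7 TPM, ATF4 at 1188 TPM, DDIT3 at 264 TPM, ATF3 at 106 TPM and SESN2 at 68.4 TPM. All are values of replicate 2. The criterion was applied to 10 genes in this group, chance meets it in about 1 of 20 groups, and genes of 1 library are not independent.

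The change with FHD-286 differed between the lines for DDIT4 by -2.73, for TRIB3 by -2.25 and for DDIT3 by -3.84 (H146 minus H82, log2 scale), each by the interaction term.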

How the results depend on the processing

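Of 6 lower members in H146 besides GDF15, all 6 were counted lower under each alternative (6 to 7 without single libraries), and GDF15 in H146 moved by less than the spread between its treated libraries. The count of higher members in H146, 0 of 9, was 1 with a replicate block (CHAC1) and 0 to 1 without single libraries. In H82 the count of higher members, 1 of 10, was 0 with no filter beyond a TPM above 0 and 0 with a replicate block, and 0 to 2 without single libraries, and the count of lower members was 0 to 6. Same-numbered replicates showed no shared deviation (correlations -0.0378 to 0.027 in H82 and -0.111 to 0.0108 in H146). With so few libraries this cannot tell whether the numbers pair the samples, and the labels do not say. The block called 10958 genes in H82 and 7126 in H146, against 11584 and 9389. Without single libraries the calls ranged from 5967 to 13460 in H82 (fewest without untreated replicate 1), from 6339 to 11209 in H146 and from 10896 to 14721 for the difference between the lines.

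Scaling by the median of ratios turned ATF4 and CHAC1 in H82 to 0.27 each and the VLDLR difference between the lines to -0.53, and took ATF4 (-1.63) and ATF3 (-3.18) past the threshold for that difference. DDIT3 lost that difference with a pseudocount of 0.1, with no filter and with the block, and TRIB3 with no filter. Without single libraries TRIB3 lost it in 9 and DDIT3 in 10 of 13 fits.

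Leaving out single libraries turned signs among members not past the threshold. In H82 the ranges were -0.80 to 0.077 for ATF4, -0.64 to 2.04 for DDIT3, -1.95 to 0.23 for ATF3, -0.97 to 0.67 for TRIB3, -1.40 to 0.73 for CHAC1 and -1.44 to 0.068 for ASNS. For the difference between the lines they were -0.067 to 2.07 for CHAC1, -1.42 to 0.18 for ASNS, -1.28 to 0.20 for SESN2 and -0.15 to 0.39 for VLDLR. TPM keeps no read counts, so the spread of 3 or 4 libraries sets the precision.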
